A study of Mus musculus with 8 samples.

Results

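The 69 nuclear genes that encode, or are named for, subunits of respiratory complexes I, II, III and V were compared between Mib1 mutant and wild-type mouse heart ventricles. They were taken from a table of 13869 genes by symbol: names beginning with Ndufa, Ndufb, Ndufc, Ndufs, Ndufv, Uqcr or Atp5, together with Sdha, Sdhb, Sdhc, Sdhd and Cyc1, with the Ndufaf assembly factors left out. Of the 69 genes, 39 are named for complex I, 4 belong to complex II, 9 to complex III and 17 are named for complex V. Mutant embryos (Mib1flox; TnT-Cre) carried a floxed Mib1 allele and Cre recombinase driven by the cardiac troponin T promoter, which is active in cardiomyocytes, so that other ventricular cell types are expected to keep Mib1. Siblings labelled as wild type served as controls, and the labels do not say whether they carried Cre or the floxed allele. All embryos were at E14.5, and each group of 4 libraries was made by pooling the ventricles of 16 hearts. The labels do not name the litters of the pools, so the p values cover variation between pools, which may be partly technical.

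The respiratory chain lies in the inner mitochondrial membrane. Complex I oxidises NADH and complex II oxidises succinate; both pass electrons to ubiquinone, complex III passes them on to cytochrome c, and complex IV reduces oxygen. Complexes I, III and IV pump protons, and complex V, the ATP synthase, uses the proton gradient to make ATP. Cardiomyocytes are rich in mitochondria, and their reliance on oxidative metabolism grows as the heart matures. Apart from complex II, each complex also contains subunits encoded in mitochondrial DNA, which are counted separately below.

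Recovered totals ran from 6307634 to 11506082 reads per library, and the lowest count of any of the 69 genes in any library was 42 reads (Ndufa4l2), against a floor of 3 reads that corresponded to 0.265 to 0.472 CPM (reads per 1000000 of the normalised library size). All 69 genes passed the filter of a mean log2 CPM of at least 0. The deleted gene, Mib1, averaged 100.2 ± 5.33 CPM in mutant libraries and 161 ± 7.48 CPM in wild type (SD, n = 4; log2 difference −0.68 ± 0.06 SE, limma adjusted p = 8.62e-06). Mutant libraries 1 and 2 had the steepest dependence on transcript length of all libraries. Over 13314 genes with an annotated length, log2 CPM relative to the wild-type mean changed by 0.0712 and 0.0542 per doubling of length in these libraries, against −0.007 and 0.0313 in mutant libraries 3 and 4 and −0.0105 to 0.0225 in the wild-type libraries. Short transcripts were therefore lower in mutant libraries 1 and 2 than in the others, and results are given with and without this pair. The setting without the pair was chosen after seeing the data, and it keeps mutant library 4, whose slope was also above those of all wild-type libraries.

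Genes of the 4 complexes stood slightly lower in the mutants, and few of them individually passed the test. Of the 69 genes, 67 had a log2 difference below 0, compared with 49.7% of the 13740 genes tested, and the median was −0.15, or 9.63% lower, where the median over all genes tested was 0.00. Only Ndufb7, Ndufa5 and Uqcr10 fell at an adjusted p below 0.05 (limma, Benjamini-Hochberg over all genes tested), and 0 rose. Over all genes tested, 2.24% were called, 1.25% as falls and 0.99% as rises, and the 3 falls among 69 genes stand beside that background. At an unadjusted p below 0.05, 33 of the 69 were lower (7.85% of all genes tested) and 0 higher (6.94%). The background was higher among short genes: of 279 tested genes with transcripts under 600 bases, 218 lay below 0, 86 were lower at an unadjusted p below 0.05 and 34 had no overlap with mutants lower. The corresponding numbers among 23 of the 69 genes in that class were 23, 16 and 7. Over all lengths, in 18 genes every mutant library lay below every wild-type library (4.65% of all genes tested), and in 0 genes above (4.27%).

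**Figure D1:**
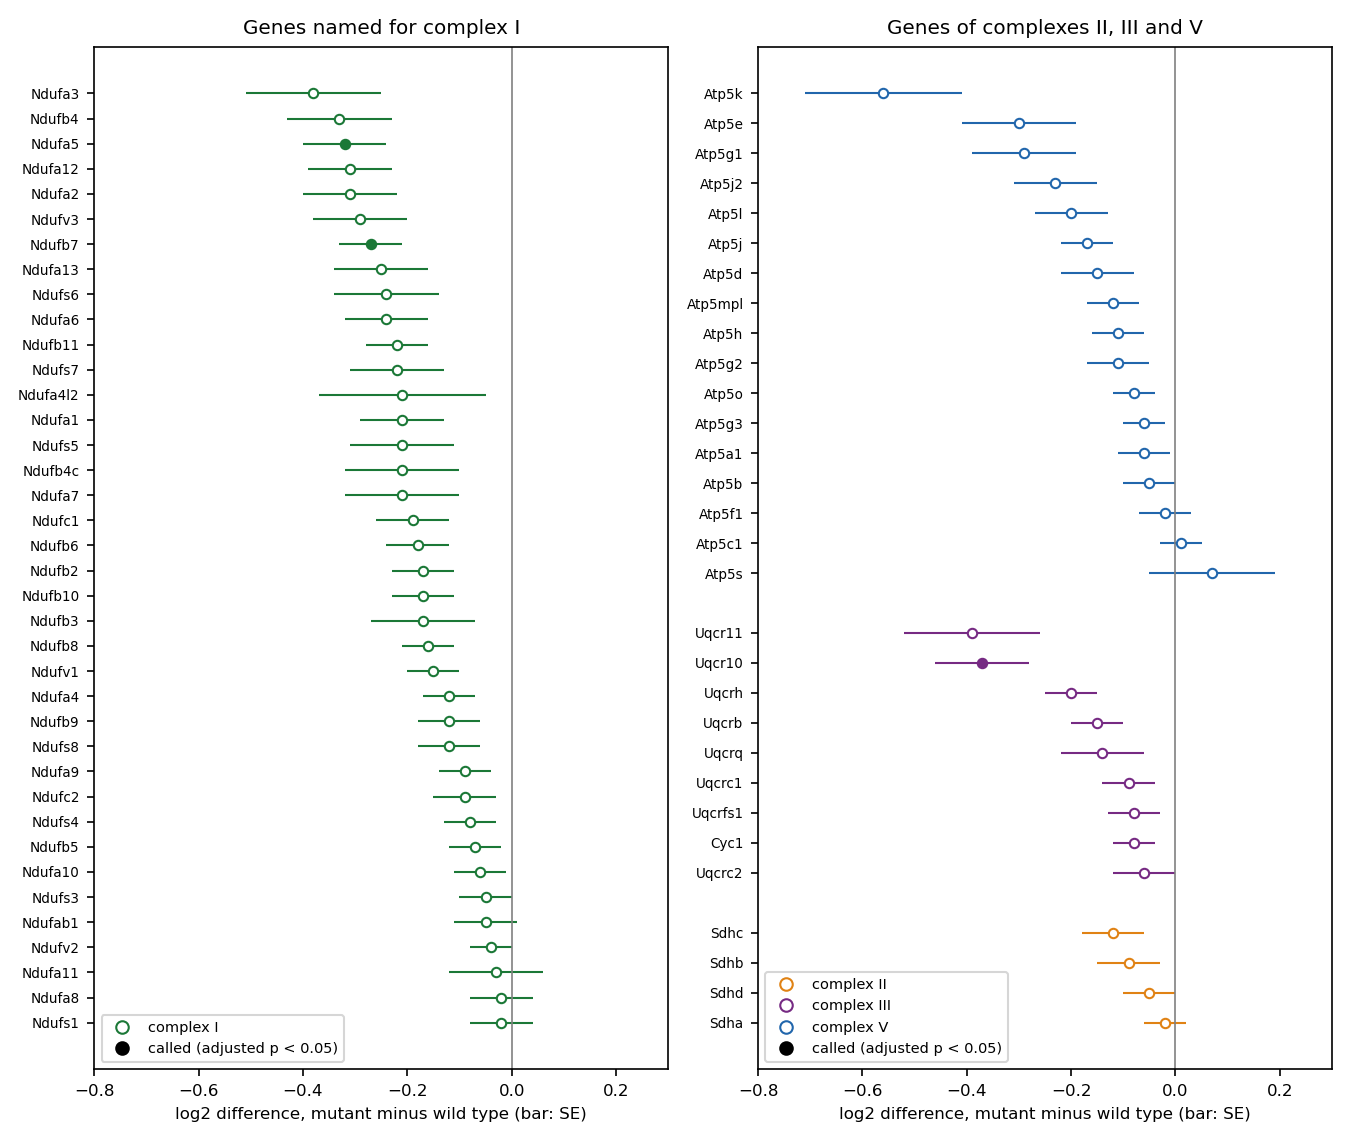
Log2 difference (mutant minus wild type, x axis) with its SE for the 69 genes except 1 that is not shown, ordered within each complex; filled points mark the 3 genes called at an adjusted p below 0.05. The points lie left of 0, from −0.56 for Atp5k, except Atp5c1 (0.01) and Atp5s (0.07), which lie right of it.

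The lowest of the 8 libraries was a mutant one for all 69 genes, whereas this held for 55.8% of all genes tested. Mutant library 1 was the lowest for 44 of the 69 (20.6% of all genes), library 2 for 11 (11%), library 3 for 10 (13.7%) and library 4 for 4 (10.5%). The number of the 69 genes lying below all 4 wild-type libraries was 56, 52, 37 and 35 in mutant libraries 1 to 4, against 30.5%, 25.3%, 23.9% and 22.6% of all genes tested. Each of the 4 mutant libraries thus lay below the wild-type range for more of the 69 genes than of all genes, libraries 1 and 2 for the most, and library 1 most often held the lowest value. Without libraries 1 and 2, the median over the 69 genes was −0.08, 66 remained below 0 (49.6% of all genes), 14 had an unadjusted p below 0.05 (6.11%) and 0 were called, against 211 calls (1.54%) over all genes. As these libraries held the lowest value for most of the 69 genes, leaving them out moves the median towards 0 by construction.

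The same pattern was seen when the levels of each complex were summed. The 39 genes named for complex I summed to 4069, 4262, 4440.2 and 4511 CPM in the mutants and to 4854, 4763, 4700.3 and 4593 CPM in wild type, and the groups did not overlap. For complex III the sums were 2241, 2277, 2279 and 2297 CPM against 2553, 2488, 2453 and 2415 CPM, again without overlap. For complex V they ran from 9798 to 10024 CPM in the mutants and from 10348 to 10656 CPM in wild type, a sum to which Atp5b and Atp5a1 contributed most. The mutant mean was 91.4% of the wild-type mean for complex I, 91.8% for complex III and 94.8% for complex V. Complex II was closest to wild type, at 96.4%, and its sums overlapped (1432 to 1479 CPM in the mutants, 1472 to 1570.5 CPM in wild type). Without mutant libraries 1 and 2, however, the median log2 difference was −0.07 for each of complexes I, II and V and −0.11 for complex III. In bulk ventricle, fewer cardiomyocytes and less RNA per cardiomyocyte cannot be told apart.

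**Figure D2:**
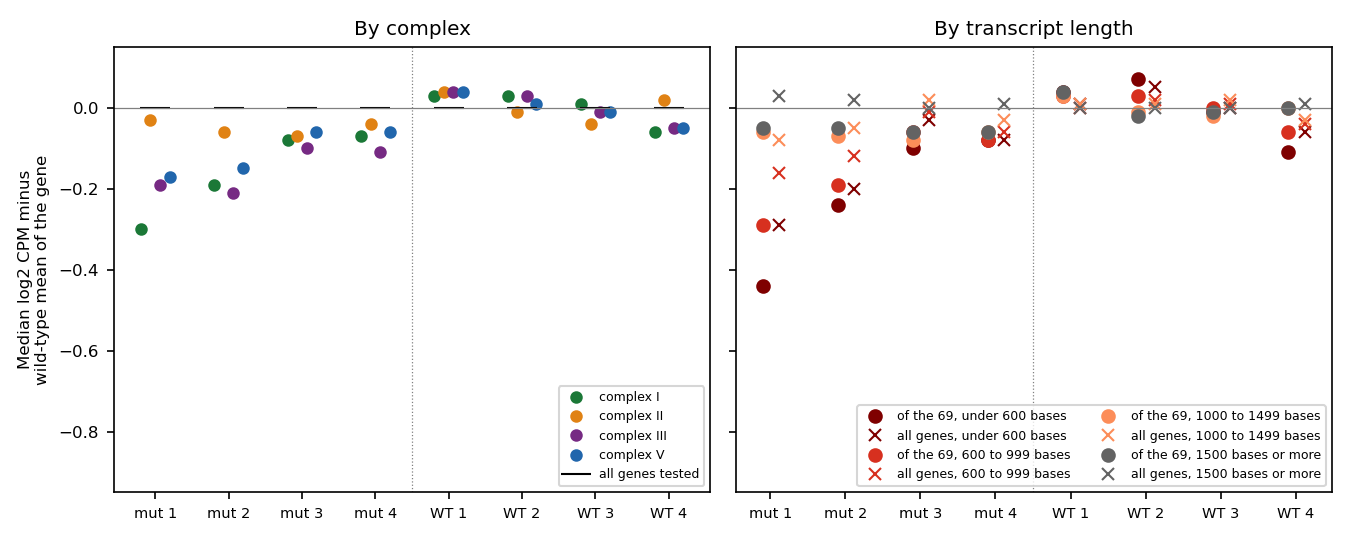
Median over genes of log2 CPM minus the gene's wild-type mean (y axis) in each of the 8 libraries (x axis), by complex (left; black bars, all genes tested) and by transcript length (right; circles, the 69 genes; crosses, all genes of that length). In mutant library 1 the median was −0.30 for complex I and −0.03 for complex II, and −0.44 for genes of the 69 under 600 bases against −0.29 for all genes of that length.

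The 3 called genes encode small accessory subunits. Ndufb7 (ENSMUSG00000033938), an accessory subunit of the distal membrane arm of complex I that faces the intermembrane space, stood at 69.3, 72.1, 84.2 and 77.6 CPM in the mutants and at 93.4, 94.7, 89.6 and 88.0 CPM in wild type. The groups did not overlap, and the gene fell from 91.4 ± 3.13 to 75.8 ± 6.59 CPM, 17.3% (log2 difference −0.27 ± 0.06 SE, limma adjusted p = 0.0438). Ndufa5 (ENSMUSG00000023089), an accessory subunit of the ubiquinone-binding module of complex I, stood at 60.9, 69.5, 73.6 and 74.1 CPM against 93.7, 92.2, 81.6 and 78.9 CPM. It fell by 0.32 ± 0.08 on the log2 scale (limma adjusted p = 0.0492), with mutant library 1 lowest and no overlap. Uqcr10 (ENSMUSG00000059534), a small membrane subunit of complex III, stood at 85.7, 108, 121 and 117 CPM against 142, 148, 138 and 128 CPM. It fell by 0.37 ± 0.09 (limma adjusted p = 0.0494), again with mutant library 1 lowest and no overlap. All 3 calls lay close to the threshold: Ndufb7 lost its call in 7, Ndufa5 in 6 and Uqcr10 in 5 of the 8 fits that each omitted 1 library. Without mutant libraries 1 and 2 their adjusted p values were 0.234, 0.212 and 0.119, at differences of −0.18, −0.22 and −0.22.

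Atp5k (ENSMUSG00000050856), which encodes subunit e of the ATP synthase, a membrane subunit involved in the pairing of synthase units, had the lowest difference of the 69 genes but did not pass the test. It stood at 57.1, 69, 100.4 and 103 CPM in the mutants and at 121, 131, 117 and 104 CPM in wild type. The values of mutant libraries 3 and 4 came within a few CPM of the lowest wild-type library, and the spread among mutants was wide (82.3 ± 22.8 CPM, against 118 ± 11.1 CPM in wild type). Its difference was −0.56 ± 0.15 SE on the log2 scale (limma adjusted p = 0.0777), or −0.21 without mutant libraries 1 and 2. With the trend of level on transcript length and GC content removed from each library, a setting chosen after seeing the data, the difference was −0.37 and was called (limma adjusted p = 0.00241). The transcripts annotated for Atp5k had a median of 321.5 bases, the shortest of the 69 genes.

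**Figure D3:**
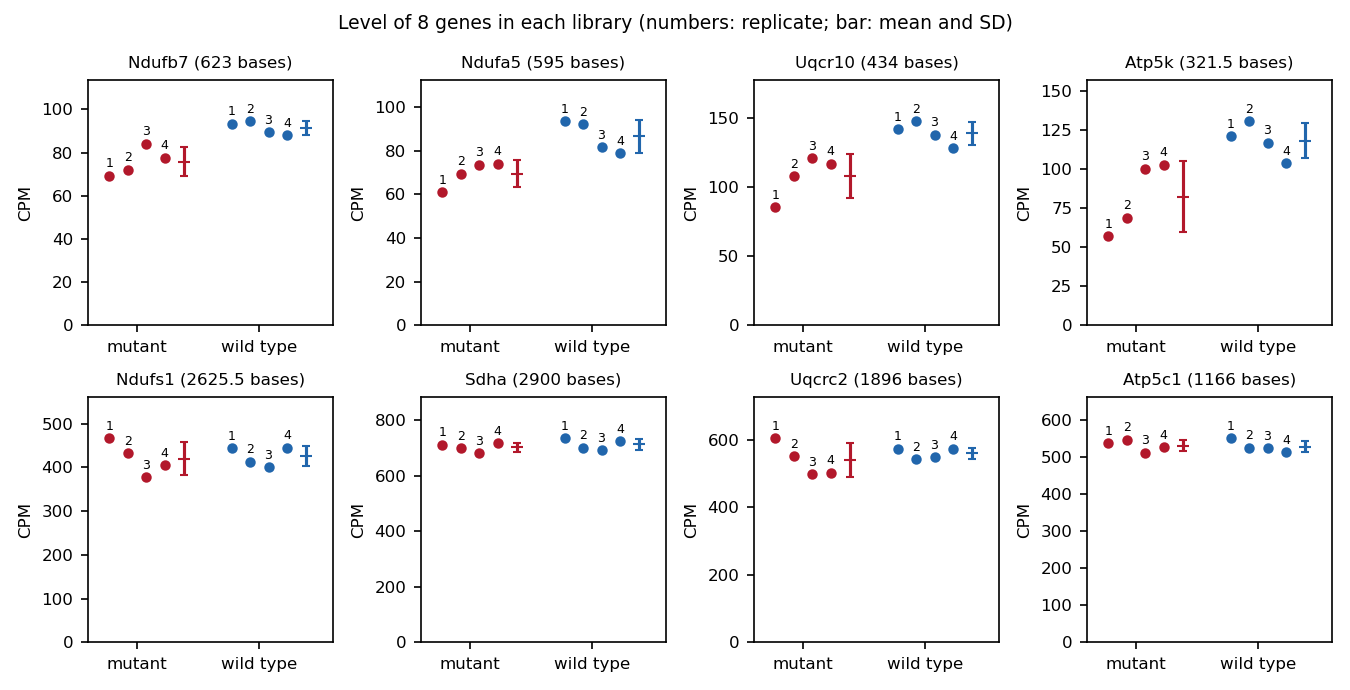
CPM (y axis) in each library for 8 genes, with the replicate number above each point and the mean and SD of 4 libraries as a bar; annotated transcript length is given in each title. The upper row holds the 3 called genes and Atp5k, whose mutant libraries all lie below wild type, and the lower row holds Ndufs1, Sdha, Uqcrc2 and Atp5c1, whose groups overlap.

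The sequences before the transcription start of these genes are shown because respiratory genes are known for shared promoter motifs of nuclear respiratory factor 1 (NRF1), YY1 and GABP, an ETS family factor. The 250 bases upstream of the start are given 5′ to 3′ in the direction of transcription, from RefSeq on GRCm38.p6, with matches on either strand to the NRF1 motif (the capitals in Ndufa5, Atp5k and Sdha) or to the ETS motif CCGGAAG (the capitals in Ndufb7) in capitals. They are Ndufb7 (chr8:83566508-83566757, plus strand), Ndufa5 (chr6:24527691-24527940, minus strand, 1 of the starts listed), Uqcr10 (chr11:4704345-4704594, minus strand), Atp5k (chr5:108434400-108434649, minus strand) and, as a gene whose level did not pass the test in either direction, Sdha (chr13:74350241-74350490, minus strand).
Ndufb7: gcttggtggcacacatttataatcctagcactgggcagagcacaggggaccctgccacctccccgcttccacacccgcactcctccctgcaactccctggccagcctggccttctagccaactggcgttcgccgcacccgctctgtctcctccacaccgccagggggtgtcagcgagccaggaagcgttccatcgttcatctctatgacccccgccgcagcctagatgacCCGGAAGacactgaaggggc
Ndufa5: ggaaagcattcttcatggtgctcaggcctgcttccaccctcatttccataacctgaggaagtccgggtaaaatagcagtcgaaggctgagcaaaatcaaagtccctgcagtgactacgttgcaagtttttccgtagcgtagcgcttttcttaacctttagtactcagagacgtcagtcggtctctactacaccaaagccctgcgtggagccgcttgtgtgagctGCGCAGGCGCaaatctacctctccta
Uqcr10: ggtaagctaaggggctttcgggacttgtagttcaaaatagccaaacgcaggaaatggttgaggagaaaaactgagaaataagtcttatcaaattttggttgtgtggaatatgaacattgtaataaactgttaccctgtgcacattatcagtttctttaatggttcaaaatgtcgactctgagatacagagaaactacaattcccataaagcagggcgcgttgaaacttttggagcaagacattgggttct
Atp5k: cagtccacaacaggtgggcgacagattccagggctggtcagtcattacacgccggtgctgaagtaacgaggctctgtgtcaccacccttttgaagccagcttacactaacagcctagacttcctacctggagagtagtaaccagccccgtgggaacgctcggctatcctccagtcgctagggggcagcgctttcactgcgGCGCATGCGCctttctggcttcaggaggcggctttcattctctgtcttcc
Sdha: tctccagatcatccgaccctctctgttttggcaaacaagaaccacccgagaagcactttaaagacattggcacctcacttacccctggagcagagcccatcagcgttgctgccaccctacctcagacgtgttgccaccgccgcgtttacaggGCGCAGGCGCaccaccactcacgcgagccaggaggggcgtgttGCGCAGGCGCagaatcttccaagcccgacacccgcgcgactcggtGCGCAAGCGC
The Ndufb7 sequence held 1 ETS match, Ndufa5 and Atp5k 1 NRF1 match each, Sdha 3 NRF1 matches, and Uqcr10 no match to these letters.

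Over all 56 genes of the 69 with a promoter in the table (61 promoters, searched from 250 bases before to 50 after the start, both strands), the NRF1 motif occurred in 27.9%. The YY1 motif AANATGGCG occurred in 16.4% and the ETS motif in 21.3%, and at least 1 of the 3 in 57.4%. Among 13250 promoters of genes in the expression table the shares were 9.53%, 4.69%, 16.6% and 27.2%, and among all 32851 promoters 4.6%, 2.38%, 8.86% and 14.2%. The median log2 difference was −0.10 for the 16 genes with an NRF1 match and −0.17 for the 40 without, −0.20 for the 10 with a YY1 match and −0.15 for the 46 without, and −0.18 for the 13 with an ETS match and −0.15 for the 43 without. A match describes letters in this window and not binding of the factor.

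In complex I, all 39 genes lay below 0, with a median of −0.17 (−0.07 without mutant libraries 1 and 2). The 7 nuclear core subunits, which carry the flavin and iron-sulphur clusters or form the ubiquinone site, had a median of −0.09, and the 29 accessory subunits a median of −0.19. The core genes also have longer transcripts (median 1312 bases, against 704 bases for the accessory genes). With the length and GC trend removed from each library the medians were −0.06 and −0.11, and without mutant libraries 1 and 2 they were −0.05 and −0.09. The difference between the classes was not tested.

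Among the core genes, Ndufs1, the largest subunit, which carries iron-sulphur clusters of the NADH-binding module, stood at 467, 432, 377 and 405 CPM in the mutants and 444, 413, 400 and 445 CPM in wild type. Its groups overlapped fully (−0.02 ± 0.06 SE, limma adjusted p = 0.918), and mutant library 1, which was lowest for most of the 69 genes, was its highest library. Ndufv1, which binds NADH and the flavin, stood at 215 to 242 CPM in the mutants and 253 to 262 CPM in wild type, with no overlap, at −0.15 ± 0.05 (limma adjusted p = 0.145). Ndufv2, its iron-sulphur partner, differed by −0.04 ± 0.04 from 203 CPM in wild type. In the ubiquinone-binding module, Ndufs3, a core subunit that binds no cofactor, stood at −0.05 ± 0.05. Ndufs7 and Ndufs8, which carry iron-sulphur clusters, stood at −0.22 ± 0.09 and −0.12 ± 0.06. None of the 7 core genes was called.

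By position in complex I, the 10 genes of the NADH-binding module had a median of −0.22, the 6 of the ubiquinone-binding module −0.11, the 9 of the proximal membrane arm −0.19 and the 10 of the distal membrane arm −0.17. Without mutant libraries 1 and 2 these were −0.10, −0.07, −0.06 and −0.11. Differences between these parts were not tested. Ndufa3, a small proximal arm subunit, showed the lowest difference of complex I, at 37.6, 44.8, 62.8 and 60.2 CPM in the mutants and 65.9, 68.9, 66.3 and 60.3 CPM in wild type. Mutant library 3 lay within the wild-type range and library 4 just below it, and the difference of −0.38 ± 0.13 SE (limma adjusted p = 0.179) was −0.09 without libraries 1 and 2. Ndufa2, an accessory subunit of the NADH-binding module with a thioredoxin-like fold, stood at 54.8, 61.2, 73.5 and 71.0 CPM against 82.6, 82.7, 85.8 and 70.5 CPM (−0.31 ± 0.09, limma adjusted p = 0.106). Wild-type library 4 overlapped the mutants.

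Other genes of complex I showed the range within it. In the NADH-binding module, Ndufa12 (−0.31), Ndufv3 (−0.29), Ndufa6 (−0.24), Ndufs6 (−0.24) and Ndufa7 (−0.21) stood below Ndufs4 (−0.08), a subunit whose loss causes Leigh syndrome. In the same order these 6 stood at −0.17, −0.10, −0.10, −0.03, −0.02 and −0.06 without mutant libraries 1 and 2. With the length and GC trend removed they stood at −0.24, −0.15, −0.06, −0.11, −0.05 and −0.12. Ndufs6 and Ndufa7 thus lay above Ndufs4 in both settings. Of these 6 genes Ndufa12, Ndufa6 and Ndufs4 had no overlap between groups, with mutants lower (4.65% of all genes tested). In the proximal arm, Ndufa13, also known as GRIM-19, stood at −0.25 with no overlap, and Ndufa1, Ndufs5 and Ndufc1 at −0.21, −0.21 and −0.19. Ndufa10, Ndufa11 and Ndufc2 of the same arm stood at −0.06, −0.03 and −0.09. Ndufa8, a subunit of the intermembrane space side, had nearly equal levels, 79.8, 93.1, 95.5 and 94.6 CPM in the mutants against 94.7, 94.4, 90.6 and 88.3 CPM (−0.02 ± 0.06), and its difference was 0.05 without mutant libraries 1 and 2. In the distal arm the values ran from −0.33 (Ndufb4) to −0.07 (Ndufb5), with Ndufb11 at −0.22, Ndufb6 at −0.18, Ndufb2, Ndufb3 and Ndufb10 at −0.17, Ndufb8 at −0.16 and Ndufb9 at −0.12. Ndufab1, the mitochondrial acyl carrier protein, which is bound in both arms, stood at −0.05 and Ndufa9 of the ubiquinone-binding module at −0.09.

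Ndufb4 stood at 12.9, 13.9, 12.7 and 11.3 CPM in the mutants and 15.9, 15.4, 18.0 and 14.7 CPM in wild type, with no overlap (−0.33 ± 0.10 SE, limma adjusted p = 0.131; −0.41 without mutant libraries 1 and 2). Its near copy Ndufb4c, which GENCODE M21 lists as a processed pseudogene and RefSeq as protein coding, stood higher, at 51.8 ± 4.62 CPM in wild type and 45.0 ± 7.0 CPM in the mutants (−0.21 ± 0.11). Reads of this pair can be divided between them in the counting, so the levels of both are uncertain. Of the genes that carry a complex I name without being structural subunits of it, Ndufa4, now placed in complex IV, stood at 217, 225, 235 and 251 CPM in the mutants and 252, 262, 255 and 238 CPM in wild type (−0.12 ± 0.05). Its paralogue Ndufa4l2, known for induction under hypoxia, was low in both groups (7.83 ± 0.775 and 6.88 ± 1.61 CPM) and differed by −0.21 ± 0.16.

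Complex II, succinate dehydrogenase, is encoded wholly in the nucleus and also takes part in the tricarboxylic acid cycle. All 4 of its genes lay below 0, with a median of −0.07 (also −0.07 without mutant libraries 1 and 2), and 0 were called. Sdha, the flavoprotein that oxidises succinate, stood at 712, 698, 682 and 717 CPM in the mutants and at 735, 701, 692 and 725 CPM in wild type, and the groups overlapped (−0.02 ± 0.04 SE). Sdhb, the iron-sulphur subunit, stood at 246, 242, 225 and 250.1 CPM against 285, 243, 253 and 248 CPM (−0.09 ± 0.06). Of the membrane anchors, Sdhc stood at 194, 197, 221 and 221 CPM against 230.3, 228, 217 and 228 CPM (−0.12 ± 0.06), with mutant libraries 1 and 2 low and 3 and 4 within the wild-type range. Sdhd stood at 326, 321, 303 and 291 CPM against 321, 325, 309.6 and 324 CPM (−0.05 ± 0.05), with mutant libraries 3 and 4 low instead.

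In complex III, all 9 genes lay below 0, with a median of −0.14 (−0.11 without mutant libraries 1 and 2). The 4 catalytic and core proteins had a median of −0.08 and the 5 small subunits −0.20, and without mutant libraries 1 and 2 both stood at −0.11. Uqcrc2, a core protein, stood at 605, 551, 499 and 503 CPM in the mutants and 574, 543, 548 and 574 CPM in wild type. Among the mutants its library order ran opposite to that of Uqcr10, with mutant library 1 the highest of all 8, and its difference was −0.06 ± 0.06 SE with all libraries and −0.16 without libraries 1 and 2. Uqcrfs1, the Rieske iron-sulphur protein, stood at 278, 268, 250.3 and 258 CPM against 290.4, 268, 277 and 279 CPM (−0.08 ± 0.05). Cyc1, cytochrome c1, and Uqcrc1, the other core protein, stood at −0.08 ± 0.04 and −0.09 ± 0.05.

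Among the small subunits of complex III, Uqcr11 stood at 69.1, 83.6, 114 and 108 CPM in the mutants and 126, 134, 121 and 105 CPM in wild type. Mutant libraries 3 and 4 overlapped the wild-type group, and the difference of −0.39 ± 0.13 SE was not called (limma adjusted p = 0.161). Uqcrh, the hinge protein that helps cytochrome c1 to meet cytochrome c, stood at 248, 248, 281 and 276 CPM against 303, 307, 296 and 298 CPM. All its mutant libraries lay below wild type (−0.20 ± 0.05, limma adjusted p = 0.0766). Uqcrb, a small subunit near the ubiquinone site, stood at 152 to 169 CPM in the mutants and 169 to 182 CPM in wild type (−0.15 ± 0.05). Before rounding its groups did not overlap. Uqcrq differed by −0.14 ± 0.08.

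In complex V, 15 of 17 genes lay below 0, with a median of −0.11 (−0.07 without mutant libraries 1 and 2), and 0 were called. The catalytic head and central stalk, the rotary part that makes ATP, had a median of −0.06 over 5 genes, and −0.04 with the length and GC trend removed, where the peripheral stalk stood at −0.02 and the c-ring at 0.02. Atp5b, the catalytic beta subunit, stood at 3420, 3432, 3390.3 and 3409 CPM in the mutants and 3613, 3450.4, 3510.3 and 3569 CPM in wild type. The groups did not overlap although the difference was only −0.05 ± 0.05 SE (limma adjusted p = 0.686). Atp5c1, the gamma subunit of the central stalk, stood at 538, 548, 513 and 527 CPM against 552, 526, 525 and 514 CPM (0.01 ± 0.04). Atp5a1, the alpha subunit, stood at −0.06 and Atp5d, the delta subunit, at −0.15. Atp5e, the epsilon subunit, stood at 78.2, 82.1, 94.9 and 125 CPM against 118, 121, 112 and 109.8 CPM (−0.30 ± 0.11, limma adjusted p = 0.221), with mutant library 4 the highest of all 8. Without that library its difference was −0.44 and was called (limma adjusted p = 0.00692). Leaving out the highest mutant value lowers the difference by construction, and this was the only 1 of the 8 fits with a library omitted to call it. The difference was −0.08 without mutant libraries 1 and 2 (limma adjusted p = 0.825). With the length and GC trend removed it was −0.13 (limma adjusted p = 0.434).

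The c-ring of the ATP synthase is built from a single mature protein, encoded by the 3 genes Atp5g1, Atp5g2 and Atp5g3, and their levels differed. Atp5g3 was the most abundant, at 698, 671, 699 and 689 CPM in the mutants and 683, 726, 723 and 738 CPM in wild type (−0.06 ± 0.04 SE). Atp5g1 stood at 196, 162, 227 and 227 CPM against 267, 238, 222 and 259 CPM (−0.29 ± 0.10, limma adjusted p = 0.158), with mutant libraries 1 and 2 low. Atp5g2 stood at 191, 209, 226 and 223 CPM against 232, 230.3, 224 and 228 CPM (−0.11 ± 0.06). With the length and GC trend removed from each library the values were 0.02 for Atp5g3, −0.29 for Atp5g1 and 0.04 for Atp5g2. The annotated transcripts of Atp5g1 run from 596 to 4715 bases, so its place on the length scale is uncertain.

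In the peripheral stalk, which holds the head still, the median over 4 genes was −0.09. Atp5j, coupling factor 6, stood at 249, 245, 255 and 252 CPM in the mutants and 297, 283, 275 and 274 CPM in wild type, with no overlap (−0.17 ± 0.05 SE, limma adjusted p = 0.0683). Its value without mutant libraries 1 and 2 was −0.16. Atp5h (subunit d), Atp5o (the oligomycin sensitivity protein) and Atp5f1 (subunit b) stood at −0.11, −0.08 and −0.02. The 4 other membrane subunits, which include those of the dimer interface, had a median of −0.22. All 4 were lower at an unadjusted p below 0.05 (7.85% of all genes tested, and 86 of 279 under 600 bases). Their median transcript was 516.5 bases. Without mutant libraries 1 and 2 their median was −0.09 and 1 was lower at that threshold (6.11% of all genes). With the length and GC trend removed the median was −0.13. Beside Atp5k these 4 subunits are Atp5j2 (subunit f), at 155, 174, 209 and 198 CPM against 221, 226, 212 and 201 CPM (−0.23 ± 0.08), Atp5l (subunit g) at −0.20 and Atp5mpl at −0.12. Usmg5, a further subunit of this region that lacks the Atp5 prefix and was not among the 69, stood at 108 ± 11.5 CPM against 132 ± 6.86 CPM (−0.29 ± 0.07, limma adjusted p = 0.0550). Atp5s, known as coupling factor B and not a structural subunit, stood at 10.8 ± 1.36 CPM against 10.2 ± 0.76 CPM (0.07 ± 0.12).

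**Figure D4:**
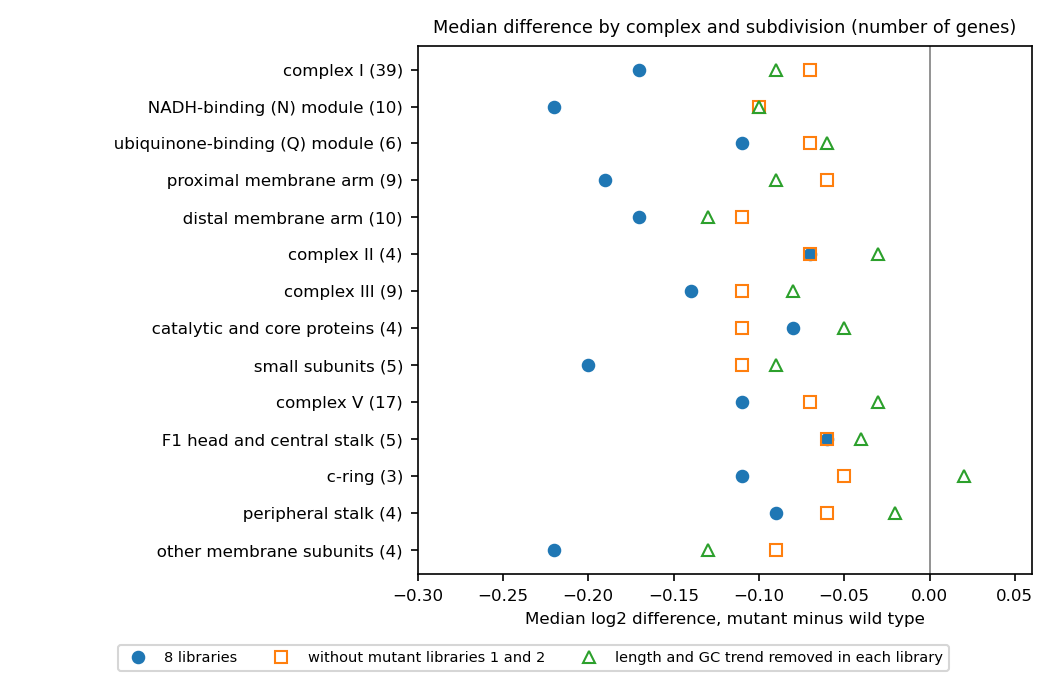
Median log2 difference (x axis) of each complex and its subdivisions (y axis, number of genes in brackets) with all 8 libraries (circles), without mutant libraries 1 and 2 (squares) and with the length and GC trend removed in each library (triangles). The NADH-binding module moves from −0.22 to −0.10 under both alternatives, and the c-ring is the only set to cross 0, at 0.02 with the trend removed.

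Differences varied with transcript length. Across the 69 genes the log2 difference correlated with log2 transcript length (Pearson r = 0.55, Spearman rho = 0.56), a description over genes that share the same 8 libraries, and across 13314 tested genes with a length the values were 0.14 and 0.20. The 69 genes are short: their median annotated transcript was 838 bases, from 321.5 (Atp5k) to 2900 (Sdha), against 2734.75 bases over all genes tested. In the class under 600 bases the median was −0.21 for 23 of the 69 genes and −0.15 for all 279 genes tested of that class. From 600 to under 1000 bases it was −0.17 (20 genes) and −0.08 (887 genes), from 1000 to under 1500 bases −0.08 (9 genes) and −0.04 (1402 genes), and from 1500 bases upward −0.06 (17 genes) and 0.01 (10746 genes). In each class the 69 genes thus lay below the class median of all genes, by less than their distance from 0 except among the longest. GC content showed r = −0.39 and rho = −0.38 across the 69 genes, and mean log2 CPM r = 0.42 and rho = 0.54, so that shorter, more GC-rich and less abundant genes of the set stood lower; these properties were not separated from each other within it.

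**Figure D5:**
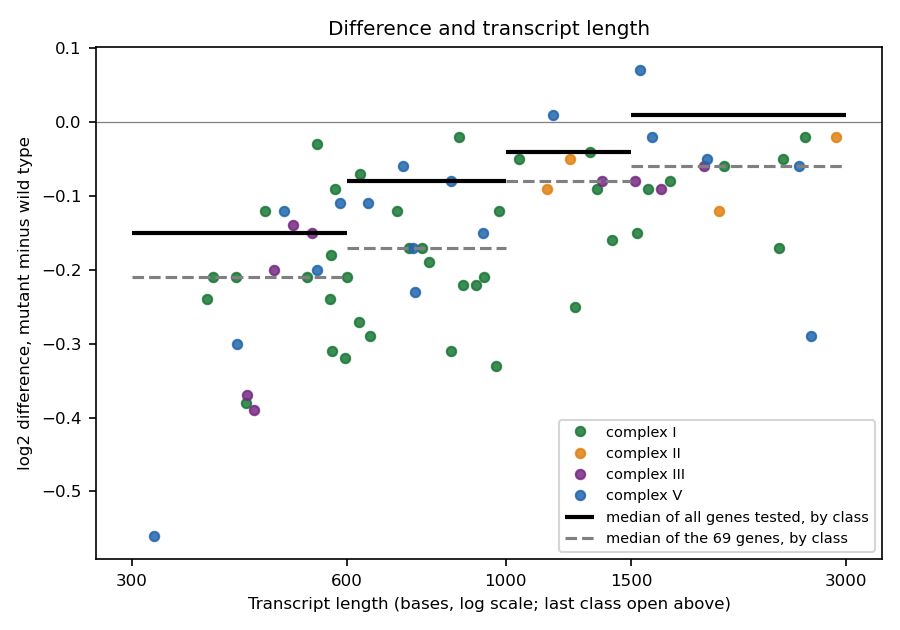
Log2 difference (y axis) against annotated transcript length (x axis, log scale) for the 69 genes, coloured by complex, with the median of each length class for all genes tested (solid) and for the 69 (dashed). The dashed lines run from −0.21 in the shortest class to −0.06 in the longest, and the solid lines from −0.15 to 0.01.

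With the length and GC trend removed from each library before the fit, the median over the 69 genes was −0.08, 59 lay below 0 (51.3% of all genes) and 23 were lower at an unadjusted p below 0.05 (8.53%), with 1 higher. At an adjusted p below 0.05, 2 fell (2.01% of all genes), Uqcr10 (−0.20, limma adjusted p = 0.0126) and Atp5k. Ndufb7 and Ndufa5 then stood at −0.12 and −0.21, with adjusted p values of 0.192 and 0.0901. The median was −0.09 for complex I, −0.03 for complex II, −0.08 for complex III and −0.03 for complex V. Per length, the most abundant gene of each complex in wild type was Ndufa4 among genes named for complex I (548 CPM per kb), Sdhd in complex II (259.9), Uqcrh in complex III (634) and Atp5b in complex V (1846). The order of levels per kb within complex II, Sdhd (259.9), Sdha (246), Sdhb (225) and Sdhc (113), depends on the annotated lengths.

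Genes that work with these complexes gave the following counts. Of the 10 subunits of complexes I, III and V encoded in mitochondrial DNA, 0 were called, 6 lay below 0 and the median was 0.00, with values from −0.13 to 0.10. Without mutant libraries 1 and 2, all 10 lay below 0 with a median of −0.08, equal to that of the 69 genes. The gene of smallest p, mt-Nd3, stood at −0.12 ± 0.05 SE (limma adjusted p = 0.340). The subunits of complex IV and cytochrome c gave values of similar size to the 69 genes: all 16 lay below 0, the median was −0.19 (−0.09 without mutant libraries 1 and 2), and 2 fell (1.25% of all genes tested). These are the muscle isoforms Cox6a2, by 0.51 (limma adjusted p = 0.00287, called in all 8 fits with a library omitted), and Cox8b, by 0.61 (adjusted p = 0.0302, call lost in 5 of the 8 and, at 0.0926, without mutant libraries 1 and 2). Their median transcript was also short, at 652 bases. Of 16 complex I assembly factors 12 lay below 0 with a median of −0.04, and of 15 assembly factors of complexes II, III and V 12 with a median of −0.13 (−0.14 without mutant libraries 1 and 2), and 0 of either list were called. Ndufaf6 and Uqcc2, of smallest p in each, stood at −0.22 ± 0.11 and −0.30 ± 0.10.

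Mitochondrial genes outside the chain had medians closer to 0 than the 69 genes with all 8 libraries. Without mutant libraries 1 and 2 the medians were nearly the same. The 17 genes of the tricarboxylic acid cycle had a median of −0.04, the 15 carriers, porins and import genes −0.03, and the 17 regulators of mitochondrial biogenesis −0.01, and 0 of the 3 lists were called. Without mutant libraries 1 and 2 these medians were −0.07, −0.06 and −0.07, with 16 of 17, 14 of 15 and 13 of 17 genes below 0, beside −0.08 for the 69 genes. With the length and GC trend removed in each library the 3 medians were −0.04, −0.05 and 0.00, again beside −0.08 for the 69 genes. Differences between lists were not tested. The genes of smallest p were Idh3b, a subunit of isocitrate dehydrogenase (−0.09 ± 0.04 SE), Hspe1, a mitochondrial chaperonin (−0.16 ± 0.07), and Esrra, an activator of respiratory genes (−0.14 ± 0.07). Nrf1, Gabpa and Yy1, whose motifs were searched in the promoters, stood at −0.02, 0.09 and 0.03. The median transcripts of these 3 lists were 2544, 1483 and 2841.5 bases.

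Markers of cell types were read beside these results. Over all genes tested, 1.25% were called as falls and 0.99% as rises. The 12 cardiomyocyte markers had a median of −0.07 with 0 called (−0.04 without mutant libraries 1 and 2). Of these, 9 lay below 0 and 3 above, from −0.21 (Tnnt2) to 0.13 (Ttn). Tnnt2, the gene of smallest p, stood at −0.21 ± 0.05 SE (limma adjusted p = 0.0658). It was called under 4 other settings, with a minimum mean of 5 CPM (0.0428), robust eBayes (0.0138), array weights (0.0482) or voom weights (0.0163). Tnnt2 was called in 0 of the 8 fits with a library omitted. Its difference was −0.20 without mutant libraries 1 and 2 (limma adjusted p = 0.164) and −0.13 with the length and GC trend removed (limma adjusted p = 0.212). The summed level of the 12 markers ran from 43603 to 46860.4 CPM in the mutants and from 45436 to 49940.1 CPM in wild type, with overlap. Endothelial markers had a median of −0.25, and 4 of 10 fell (Plvap and Npr3 in all 8 fits with a library omitted; Tek and Egfl7 lost the call in 7 and 6 of them), with sums of 1141 to 1171 CPM against 1339 to 1372 CPM. Macrophage markers had a median of −0.52, and 3 of 10 fell (Lyz2, Tyrobp and C1qc, the last losing its call in 6 of the 8), with sums of 72.3 to 89.0 CPM against 106 to 129 CPM. Erythroid markers had a median of −0.49, and 2 of the 9 measured fell (Ank1, and Hba-a1, which lost its call in 6 of the 8), with sums of 1966 to 3228 CPM against 3002 to 4090.3 CPM. Smooth muscle markers had a median of 0.15, and 2 of 7 rose (Acta2, and Cnn1, which lost its call in 5 of the 8), with sums of 1477 to 1636 CPM against 1158 to 1335 CPM. The 7 epicardial markers (median 0.02) were split, 3 below 0 and 4 above, with Tbx18 at 0.21 ± 0.07 and Krt19 at −0.23 ± 0.10. They and the 7 fibroblast markers (median −0.04, Col1a1 at −0.15 ± 0.07) had 0 calls, with summed levels that overlapped between groups. None of these markers was at 0 in all libraries, and the part of cell composition in the differences of the 69 genes was not tested.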

How the data were processed

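The authors deposited 1 table of 13869 genes in 8 columns, 4 Mib1 mutant and 4 wild-type pools of polyadenylated RNA read from 1 end. Per the submitters' processing notes, cutadapt 1.2.1, RSEM 1.16, Bowtie2 0.12.7 (version as named), limma and edgeR were used, with build mm9. The deposited values are a score: log2 CPM with a prior of 0.5 reads, times a constant per column (15.9683 to 16.0735). Divided by that constant, 100% of values gave whole reads (tolerance 0.001).

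Symbols, transcript lengths (median over basic protein-coding transcripts of a gene) and GC content came from GENCODE M21 (13428 matched, 441 not), and promoters from RefSeq on GRCm38.p6. The genotype was the only term in limma 3.58.1 (R 4.3.3; lmFit, eBayes with trend, two-sided p, Benjamini-Hochberg), fitted over the 13740 genes whose mean log2 CPM reached 0, and a call means an adjusted p below 0.05. Differences are log2, mutant minus wild type, with moderated SE. CPM are means ± SD over 4 libraries. Length and GC trends were fitted with mgcv 1.9.3. The scripts were tested on simulated data. Since reads carried no molecular identifiers, floors cover counting error only.

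The members, the gene lists and the tests were chosen with earlier results of these data known. The rule for named genes took called genes, complex II, the core subunits of complex I, Atp5g1 to Atp5g3, Ndufa4 and Ndufa4l2, the 4 lowest and 2 highest differences of complexes I, III and V among genes with a mean of at least 5 CPM, the highest level per kb in each complex, and from each list the called genes or that of smallest p. Other genes were named after their values were seen. Alternatives covered the pseudocount, the filter, scaling, weights, eBayes settings, voom on the recovered reads, a replicate block, length trends and each library left out, 26 settings in all, 2 of them chosen after seeing the data. These 2 were the fit without mutant libraries 1 and 2 and that with the length and GC trend removed in each library. The values of 1 of the 69 genes are not reported singly here; the gene is included in the counts, sums and medians.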

Additional observations from a re-analysis of the deposited data

Results flagged for a closer look

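Among 78 groups of 4 libraries examined (each named gene and each complex sum, per genotype), 2 had a library far from the other 3 by the ratio of Dixon, past its critical value for 4 samples. Chance flags about 1 in 20 such groups. For Ndufa8, mutant library 1 stood at 79.8 CPM, where the nearest of the others was at 93.1 and the highest at 95.5 CPM (ratio 0.851). For Sdhc, wild-type library 3 stood at 217 CPM, where the nearest was at 228 and the highest at 230.3 CPM (ratio 0.841).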

How the results depend on the processing

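The number of respiratory genes called, 3, was 3 with a pseudocount of 1 or 5 CPM, a minimum mean of 5 CPM, median-ratio scaling, robust eBayes or voom weights, 2 with quantile normalization or the length and GC trend removed, and 1 with no filter. It was 0 with no normalization factor, eBayes without a trend or mutant libraries 1 and 2 left out, 9 with array weights, and 9 and 0 at thresholds of 0.1 and 0.01. Over all genes, the 308 calls became 179 without the eBayes trend, 490 with array weights, 513 with the trend removed, and 551 and 119 at the thresholds of 0.1 and 0.01. The 18 genes without overlap became 11 with no normalization factor and 10 with the trend removed. With a library left out, 0 to 10 respiratory genes were called (10 without mutant replicate 3, 4 without mutant replicate 4, 1 without mutant replicate 1 or wild-type replicate 4, 0 without any of the others). Over all genes, 146 to 477 were called (fewest without wild-type replicate 1, most without mutant replicate 3). Of the 69 genes, 18 to 35 had no overlap (35 without wild-type replicate 4). Groups of 3 and 4 libraries separate more easily than 2 groups of 4, so these counts are not comparable with the 18. Outside the main setting, shares over all genes are not given for the counts without overlap. With a library left out, the medians ran from −0.17 to −0.10 for the 69 genes, −0.21 to −0.11 for complex I, −0.08 to −0.04 for II, −0.16 to −0.11 for III and −0.14 to −0.08 for V. The median of complex I was −0.07 without mutant libraries 1 and 2. With the trend removed in each library the medians were −0.08 for the 69 genes, −0.03 for II, −0.08 for III and −0.03 for V; with a trend on length, GC and level subtracted from the differences, II stood at −0.04 and V at −0.03. The 65 structural subunits alone had a median of −0.15. The causes of these changes were not tested, apart from the genes and libraries each setting leaves out.

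Signs changed for 7 of the genes named by rule. Atp5c1 (0.01) stood at 0.00 without mutant replicate 1, −0.01 without mutant replicate 2 or wild-type replicate 4, and −0.03 without mutant libraries 1 and 2. Ndufa8 (−0.02) ran from −0.05 to 0.04 with a library left out (0.04 without mutant replicate 1), and stood at 0.05 without mutant libraries 1 and 2 and at 0.07 with the trend removed. Ndufs1 (−0.02) stood at 0.03 without mutant replicate 3 and 0.00 without wild-type replicate 4. Atp5s stood at −0.07 without mutant libraries 1 and 2, and with the trend removed Atp5g2 stood at 0.04, Atp5g3 at 0.02 and Ndufs3 at 0.02. Among the other respiratory genes, Ndufa11 (−0.03) stood at 0.11 without mutant libraries 1 and 2 and at 0.13 with the trend removed, and Ndufb5, Ndufc2 and Atp5o stood at 0.01 with the trend removed. Of 1287 single-gene values over 56 genes, 1159 kept direction and side of the threshold.

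The replicate numbers were not used as pairs: libraries sharing a number correlated at −0.007, −0.038, 0.1 and −0.032 after removal of group means. With a replicate block, 0 respiratory genes and 240 genes in all were called.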
